A study of Mus musculus with 12 samples.

Results

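Schwann cell genes were followed in 12 mouse heart libraries through 5 transcripts, Sox10, Cdh19, S100b, Gfra3 and Ngfr, which were chosen by name from the 55357 genes of the deposited table of raw counts. The choice was made with earlier results of these data known. All 5 were found and all 5 passed the filter on low counts. The samples were hearts of male mice operated on at 8 weeks of age, with 3 libraries in each of 4 groups. KO TAC and KO sham hearts came from Cd163-/- mice, which lack the haemoglobin scavenger receptor of macrophages and were kept on a C57BL/6J background, and WT TAC and WT sham hearts came from C57BL/6J mice. TAC is transverse aortic constriction, in which the aorta is tied over a blunt needle to load the left ventricle with pressure, and sham surgery left the aorta untied. The labels give no cell type to which the deletion was restricted, and neither the time from surgery to collection nor the chamber of the heart that was taken is given in the sources used here.

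Schwann cells are the glia of peripheral nerves. In the heart they lie along the sympathetic, parasympathetic and sensory fibres that run through the atria and ventricles, where most of them wrap bundles of thin axons without making myelin. Sox10 is the transcription factor that specifies and maintains this lineage from the neural crest onward. Cdh19 is a cadherin of developing and mature Schwann cells, S100b is a calcium-binding protein of glia that adipocytes also make, Gfra3 is the co-receptor that binds artemin together with Ret, and Ngfr is the low-affinity neurotrophin receptor p75, which is known to rise in Schwann cells that lose contact with an axon.

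Positions are on GRCm38, the build of the GENCODE annotation used for symbols. Sox10 (ENSMUSG00000033006) is at chr15:79154908-79165240, Cdh19 (ENSMUSG00000047216) at chr1:110888326-110977584 and Ngfr (ENSMUSG00000000120) at chr11:95568818-95587735, all on the minus strand. S100b (ENSMUSG00000033208) is on the plus strand at chr10:76253853-76261159. No exon of these genes or of Gfra3 overlaps a gene on either strand, so their reads are not shared with a neighbour in this annotation.

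The windows of 250 bases before the RefSeq start of S100b and of Ngfr were searched for short motifs, and their sequences are shown because S100b passed a test after TAC and Ngfr was the member whose mean was lower after TAC in both genotypes. Windows from RefSeq entries (GRCm38.p6) are given for these 2 of the 5 genes. No entries were at hand for Sox10 or Cdh19, and the window of Gfra3 is not reported here. The GENCODE start of S100b lies 17 bases further in than the RefSeq start, and that of Ngfr lies 37 bases further out, so the last 37 bases of the Ngfr window are inside the GENCODE gene and are not printed. The sequences run 5′ to 3′ on the gene's strand and cover 250 bases at chr10:76253586-76253835 for S100b and 213 bases at chr11:95587736-95587948 for Ngfr. Capitals mark CCAAT and its reverse complement in S100b, and GGGCGG and its reverse complement in Ngfr.
S100b: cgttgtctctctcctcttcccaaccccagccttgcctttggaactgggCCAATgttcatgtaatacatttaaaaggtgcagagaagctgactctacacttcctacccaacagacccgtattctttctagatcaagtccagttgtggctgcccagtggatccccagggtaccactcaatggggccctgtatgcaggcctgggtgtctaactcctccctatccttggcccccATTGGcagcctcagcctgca
Ngfr: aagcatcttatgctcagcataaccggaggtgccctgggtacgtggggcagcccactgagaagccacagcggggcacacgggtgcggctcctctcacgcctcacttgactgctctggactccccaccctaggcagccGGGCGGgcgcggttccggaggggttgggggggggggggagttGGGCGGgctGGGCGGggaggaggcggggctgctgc
The S100b window held CCAAT 2 times and GGGCGG 0 times on both strands together, with a GC content of 53.6%. The whole Ngfr window held GGGCGG 4 times, 3 of them in the printed stretch, and CCAAT 0 times, with a GC content of 70.4%. Over the 32851 promoter windows of the same length, 33.8% held CCAAT, 32.7% held GGGCGG and the median GC content was 52.4%. Neither window held the letters ACAAAG or ACAATG, a pair of core sequences bound by SOX factors that 25.2% of all windows held, nor TATAAA, which 12.4% held. These are matches of letters, and nothing about binding was measured.

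Libraries held 14150109 to 22602225 counts, so that 1 count equalled 0.0411 to 0.0782 CPM (TMM-scaled CPM, the share of the library's counts after scaling by the trimmed mean of M-values). Cd163, the deleted gene, had counts of 59, 47 and 53 in KO TAC libraries and of 46, 112 and 96 in KO sham libraries, against 592, 255 and 541 counts in WT TAC and 304, 344 and 282 counts in WT sham libraries, so no KO library reached the lowest WT library, and transcripts of the gene were still counted in KO hearts. The library labelled KO sham replicate 1 stood apart from its group: on the first principal component it lay at 44.6, KO TAC libraries lay at 40.4 to 44.9, and the other libraries lay at -32.9 to -17.9 except WT TAC replicate 1 at 6.69. Its counts were 51.0% mitochondrial and those of KO TAC libraries 44.0 to 51.3%, against 24.8 to 36.9% for the remaining 8. Each comparison below is therefore given with all 12 libraries and again without KO sham replicate 1 or without both that library and WT TAC replicate 1.

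All 5 Schwann cell genes were detected in every library, at low levels. Per kilobase of exon and averaged over the 12 libraries, Cdh19 was the highest at 1.79 CPM per kb, followed by S100b at 1.09, Gfra3 at 0.709, Sox10 at 0.382 and Ngfr at 0.172 CPM per kb. Counts per library ran from 80 to 188 for Cdh19, from 9 to 36 for Sox10 and from 1 to 27 for Ngfr. The scatter between replicates, as edgeR's biological coefficient of variation, was 0.220 for Sox10, 0.234 for Cdh19, 0.230 for S100b and 0.264 for Gfra3, and 0.407 for Ngfr, the least precisely measured of the 5. In RNA of heart tissue, fewer Schwann cells and less RNA per Schwann cell cannot be told apart.

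**Figure D1:**
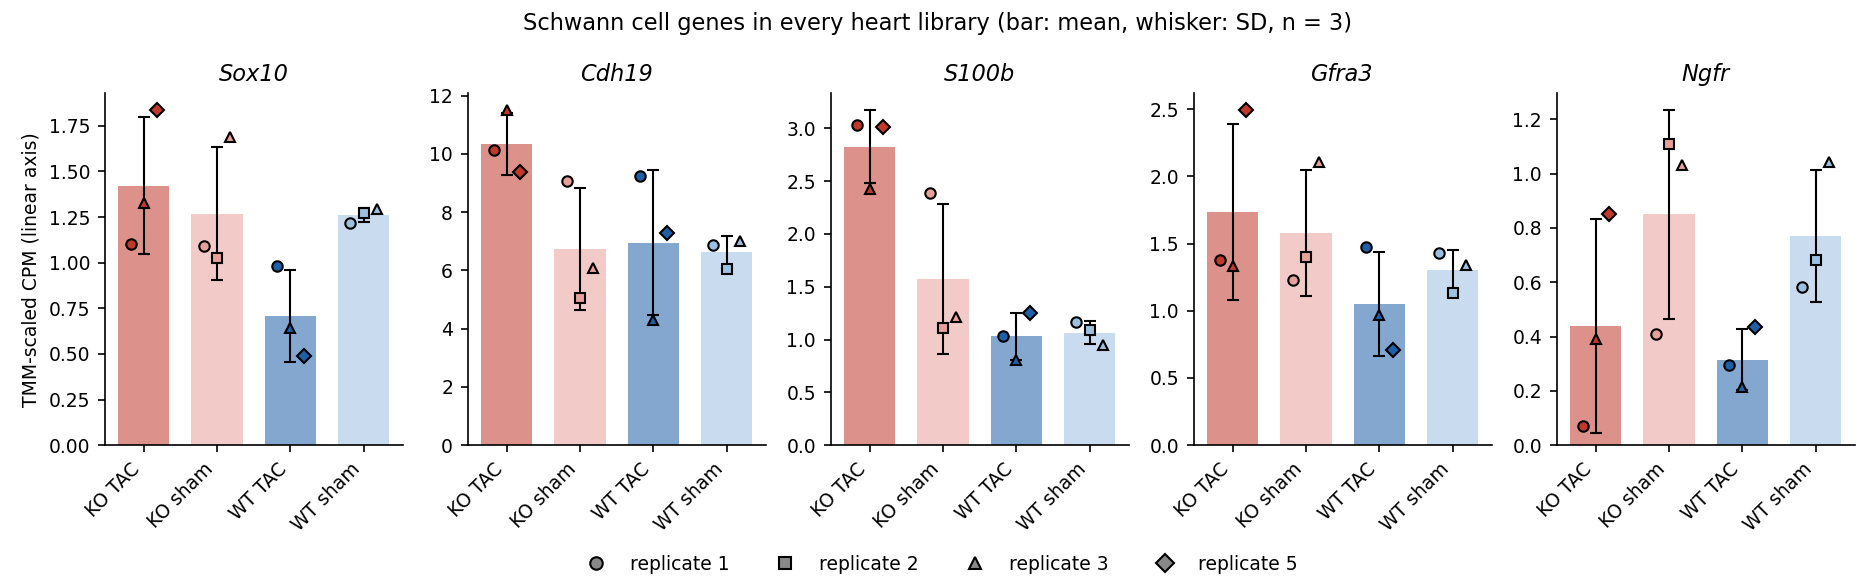
Level of each Schwann cell gene in every library as TMM-scaled CPM on a linear axis from 0, with the mean (bar) and SD (whisker) of 3 libraries per group and a marker for each replicate number. S100b in the 3 KO TAC libraries lies at 2.43 to 3.03 CPM, above the 6 WT libraries at 0.806 to 1.25 CPM, with KO sham replicate 1 at 2.39 CPM.

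Sox10, the lineage transcription factor, measured 1.10, 1.33 and 1.84 CPM in KO TAC, 1.09, 1.03 and 1.69 CPM in KO sham, 0.983, 0.645 and 0.490 CPM in WT TAC and 1.22, 1.27 and 1.29 CPM in WT sham libraries. The 3 WT TAC libraries were the lowest of all 12, and the other groups overlapped one another. Cdh19, the Schwann cell cadherin, measured 10.1, 11.5 and 9.37 CPM in KO TAC, 9.08, 5.05 and 6.09 CPM in KO sham, 9.24, 4.30 and 7.30 CPM in WT TAC and 6.88, 6.04 and 7.01 CPM in WT sham libraries. The KO TAC libraries were the highest 3, followed by WT TAC replicate 1 and the library labelled KO sham replicate 1.

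S100b measured 3.03, 2.43 and 3.02 CPM in KO TAC, 2.39, 1.11 and 1.22 CPM in KO sham, 1.03, 0.806 and 1.25 CPM in WT TAC and 1.16, 1.09 and 0.945 CPM in WT sham libraries. The 4 libraries above 2 CPM were the 3 KO TAC ones and KO sham replicate 1, and the remaining 8 lay in one narrow band. Gfra3 (ENSMUSG00000024366), the artemin co-receptor gene, lies on the minus strand of GRCm38 chr18:34689898-34720387. It measured 1.38, 1.33 and 2.49 CPM in KO TAC, 1.23, 1.40 and 2.11 CPM in KO sham, 1.47, 0.968 and 0.708 CPM in WT TAC and 1.43, 1.13 and 1.34 CPM in WT sham libraries. Its groups overlapped throughout, with the lowest values in WT TAC replicates 3 and 5.

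Ngfr, the p75 receptor, measured 0.0690, 0.391 and 0.852 CPM in KO TAC, 0.409, 1.11 and 1.03 CPM in KO sham, 0.295, 0.215 and 0.436 CPM in WT TAC and 0.582, 0.681 and 1.04 CPM in WT sham libraries. The first of these, KO TAC replicate 1, rests on 1 count. Its level was below every WT sham library in all 3 WT TAC libraries.

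After TAC, S100b was higher in KO than in WT hearts, at 2.82 ± 0.346 CPM in KO TAC and 1.03 ± 0.223 CPM in WT TAC libraries (SD, n = 3 each). The difference was 2.73-fold, a log2 fold change of 1.45 ± 0.32 (SE; 95% interval 0.75 to 2.16), with an adjusted p of 0.0210 by edgeR's quasi-likelihood test over 15804 genes, and the libraries did not overlap. Sox10 averaged 1.42 ± 0.375 CPM in KO TAC and 0.706 ± 0.252 CPM in WT TAC libraries, also without overlap, and did not pass (log2 fold change 1.00 ± 0.35, adjusted p = 0.0581). Cdh19 averaged 10.3 ± 1.08 CPM in KO TAC and 6.95 ± 2.49 CPM in WT TAC libraries (log2 fold change 0.57 ± 0.27, adjusted p = 0.135), again with every KO TAC library above every WT TAC library. Gfra3 and Ngfr overlapped between the groups, with log2 fold changes of 0.72 ± 0.37 (adjusted p = 0.158) and 0.48 ± 0.69 (adjusted p = 0.613).

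Thus 1 of the 5 Schwann cell genes passed after TAC, where 20.4% of all genes tested did, so the share among the members is near that of the whole table. The KO TAC libraries lay wholly above WT TAC libraries for 3 of the 5, against 22.7% of all genes. The median log2 fold change was 0.72 over the 5 members and -0.02 over all genes. The members were chosen with earlier results of these data known, so these shares do not test whether Schwann cell genes stand out. DESeq2 called 2 of the 5, where it called 30.2% of all genes, and limma-voom with sample weights called 3, where it called 48.4%. The call for S100b was lost when KO TAC replicate 1, 3 or 5 or WT TAC replicate 3 or 5 was left out, with adjusted p-values of 0.0581 to 0.0786 and log2 fold changes that stayed between 1.30 and 1.61. Without KO sham replicate 1, S100b (adjusted p = 0.00110) and Sox10 (adjusted p = 0.0362) passed, as did 40.7% of all genes. KO sham replicate 1 is in neither group compared here. It enters through the filter, the scaling, the shared estimate of spread and the adjustment. Without that library and WT TAC replicate 1, S100b, Sox10, Cdh19 and Gfra3 passed, with log2 fold changes of 1.46, 1.33, 0.84 and 1.06, as did 53.8% of all genes.

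**Figure D2:**
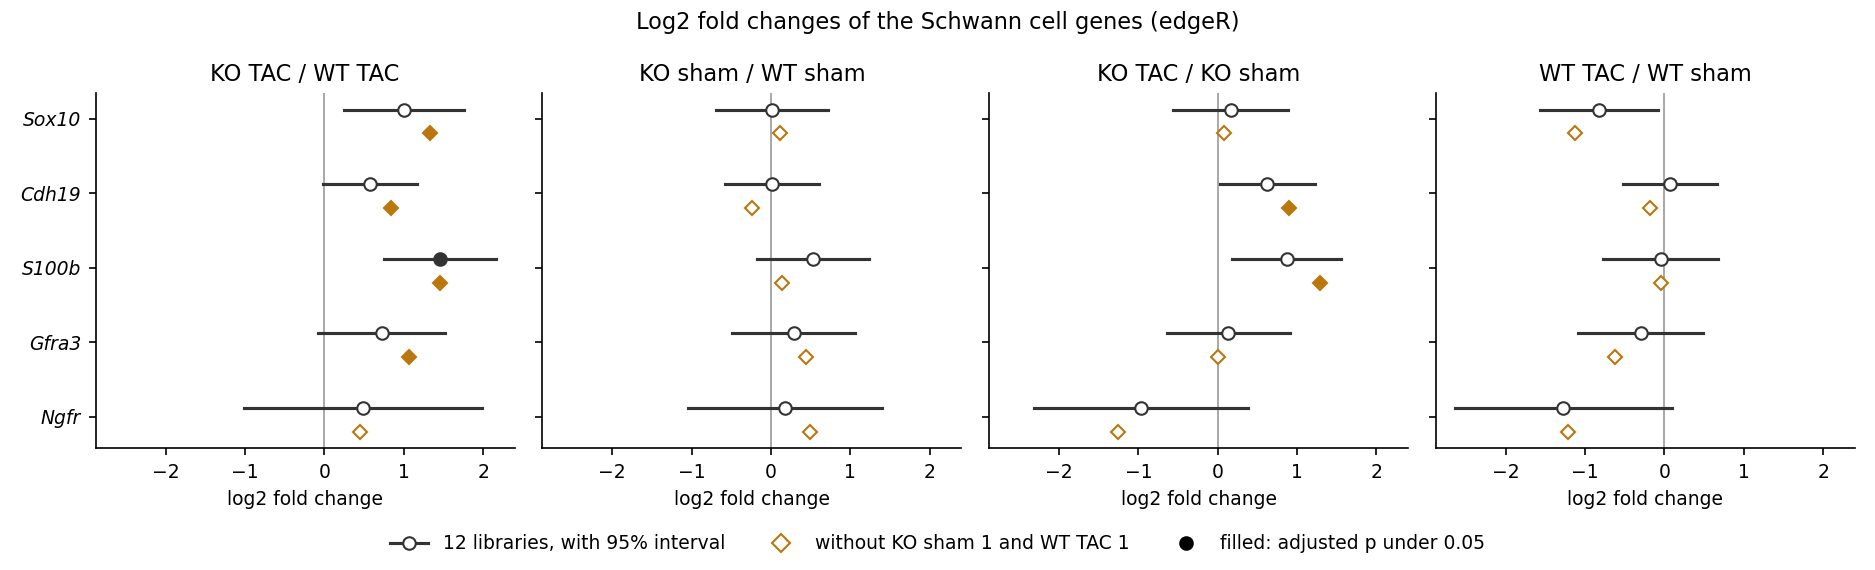
Log2 fold change of each Schwann cell gene in 4 comparisons by edgeR, each named as numerator over denominator, with the 95% interval (line) for all 12 libraries, and orange diamonds for the value with both KO sham replicate 1 and WT TAC replicate 1 left out; filled symbols have an adjusted p under 0.05. With 12 libraries only S100b in KO TAC against WT TAC is filled.

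In KO hearts, TAC was set against sham surgery. S100b averaged 2.82 ± 0.346 CPM in KO TAC and 1.57 ± 0.709 CPM in KO sham libraries, and Cdh19 averaged 10.3 ± 1.08 CPM in KO TAC and 6.74 ± 2.09 CPM in KO sham libraries. Both were higher in every KO TAC library than in any KO sham library, as were 11.6% of all genes, and neither passed edgeR's test (log2 fold change 0.87 ± 0.31, adjusted p = 0.113 for S100b and 0.63 ± 0.27, adjusted p = 0.148 for Cdh19). Sox10 and Gfra3 had log2 fold changes of 0.16 ± 0.33 and 0.13 ± 0.36, with 95% intervals of -0.56 to 0.89 and -0.64 to 0.91. Ngfr averaged 0.437 ± 0.394 CPM in KO TAC and 0.850 ± 0.383 CPM in KO sham libraries (log2 fold change -0.97 ± 0.62, adjusted p = 0.293). edgeR called 0 of the 5 and 0% of all genes, with 2 of the 5 and 4878 genes at an unadjusted p under 0.05. DESeq2 called 0 of the 5 and 13.7% of all genes.

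The KO result turned on the library labelled KO sham replicate 1. Without it, the KO sham libraries averaged 1.16 CPM for S100b and 5.57 CPM for Cdh19, and both passed, with log2 fold changes of 1.27 (adjusted p = 0.00300) and 0.88 (adjusted p = 0.0140), as did 47.6% of all genes. Leaving out WT TAC replicate 1 as well gave 1.28 (adjusted p = 0.00151) and 0.89 (adjusted p = 0.00223), with 55.5% of all genes called. limma-voom, which gives a library that departs from its group a smaller weight, called S100b and Cdh19 higher and Ngfr lower, and 63.2% of all genes.

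In WT hearts, TAC left S100b and Cdh19 close to sham. S100b averaged 1.03 ± 0.223 CPM in WT TAC and 1.07 ± 0.112 CPM in WT sham libraries, a log2 fold change of -0.05 ± 0.33 with a 95% interval of -0.77 to 0.68. Cdh19 averaged 6.95 ± 2.49 CPM in WT TAC and 6.64 ± 0.529 CPM in WT sham libraries, a log2 fold change of 0.07 ± 0.27 with a 95% interval of -0.53 to 0.66. The other members were on the low side of sham. Sox10 averaged 0.706 ± 0.252 CPM in WT TAC and 1.26 ± 0.0386 CPM in WT sham libraries (log2 fold change -0.82 ± 0.34, adjusted p = 0.273), and Ngfr averaged 0.315 ± 0.112 CPM in WT TAC and 0.769 ± 0.243 CPM in WT sham libraries (log2 fold change -1.27 ± 0.63, adjusted p = 0.335). For both genes every WT TAC library lay below every WT sham library, which held for 2 of the 5 members and 13.7% of all genes.

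None of these members passed edgeR's test in WT hearts, where 0.0316% of all genes did; 1 of the 5, Sox10, had an unadjusted p under 0.05, as did 2562 genes. DESeq2 and limma-voom also called 0 of the 5, with 3.33% and 6.52% of all genes called. The count was 0 without KO sham replicate 1 (6.53% of all genes called) and 0 without both libraries (6.18% called), and the median log2 fold change of the 5 was -0.30 with 12 libraries and -0.62 without both. Gfra3 had a log2 fold change of -0.30 ± 0.36 (adjusted p = 0.684).

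After sham surgery, KO and WT hearts overlapped for all 5 genes, while 22.5% of all genes did not overlap in one direction or the other. S100b had the largest difference of the 5, with a mean of 1.57 ± 0.709 CPM over KO sham libraries and 1.07 ± 0.112 CPM over WT sham libraries (log2 fold change 0.53 ± 0.33, adjusted p = 0.454). Sox10 and Cdh19 had log2 fold changes of 0.01 ± 0.33 and 0.01 ± 0.27, with 95% intervals of -0.70 to 0.72 and -0.58 to 0.61. edgeR called 0 of the 5 and 0.00633% of all genes, with 0 of the 5 and 2138 genes at an unadjusted p under 0.05. DESeq2 and limma-voom each called 0 of the 5 and called 1.39% and 14.9% of all genes. The count was also 0 without KO sham replicate 1, when 0.241% of all genes were called, and without both libraries, when 1.84% were.

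The interaction, which is the effect of TAC in KO hearts minus its effect in WT hearts, was positive for all 5 genes. It was 0.99 ± 0.48 for Sox10 (adjusted p = 0.557) and 0.92 ± 0.46 for S100b (adjusted p = 0.565) on the log2 scale. edgeR called 0 of the 5 and 0% of all genes, with 0 of the 5 and 1452 genes at an unadjusted p under 0.05. DESeq2 called 0 of the 5 and 0.595% of all genes, and limma-voom called 2 of the 5 and 32% of all genes. Without KO sham replicate 1 the interaction of S100b passed at 1.32 (adjusted p = 0.0419), as did 12.1% of all genes. Without both libraries S100b (1.32, adjusted p = 0.0238) and Cdh19 (1.08, adjusted p = 0.0110) passed, as did 36.1% of all genes. The sign of the Ngfr interaction was negative with limma-voom, with library totals in place of trimmed means, without KO TAC replicate 5 and without both libraries.

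Of the 10 pairs of members, Sox10 with Gfra3 and Cdh19 with S100b were the most alike across the 12 libraries. Gfra3 stood at 0.893 to 1.50 times the CPM of Sox10, with a Pearson r of 0.890 and a Spearman rho of 0.545 on log2 CPM, and an r of 0.923 after the group means were removed. Without the 2 libraries farthest from the median of Sox10, WT TAC replicates 3 and 5, r was 0.767. For Cdh19 and S100b the libraries fell into separate clusters, so no pooled value is given. With the group means removed r was 0.659, though KO sham replicate 1 still stood apart within its group there. In KO TAC replicate 1 and KO sham replicate 1, Cdh19 and S100b were high while Sox10 and Gfra3 were not, and in KO sham replicate 3 Sox10 and Gfra3 were high while Cdh19 and S100b were not. Of the summed CPM of the 5 genes, S100b made up 14.3 to 19.3% in KO TAC libraries, 16.8% in KO sham replicate 1 and 7.92 to 12.3% in the remaining 8. These values describe genes that share libraries and depth, and no test was made.

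**Figure D3:**
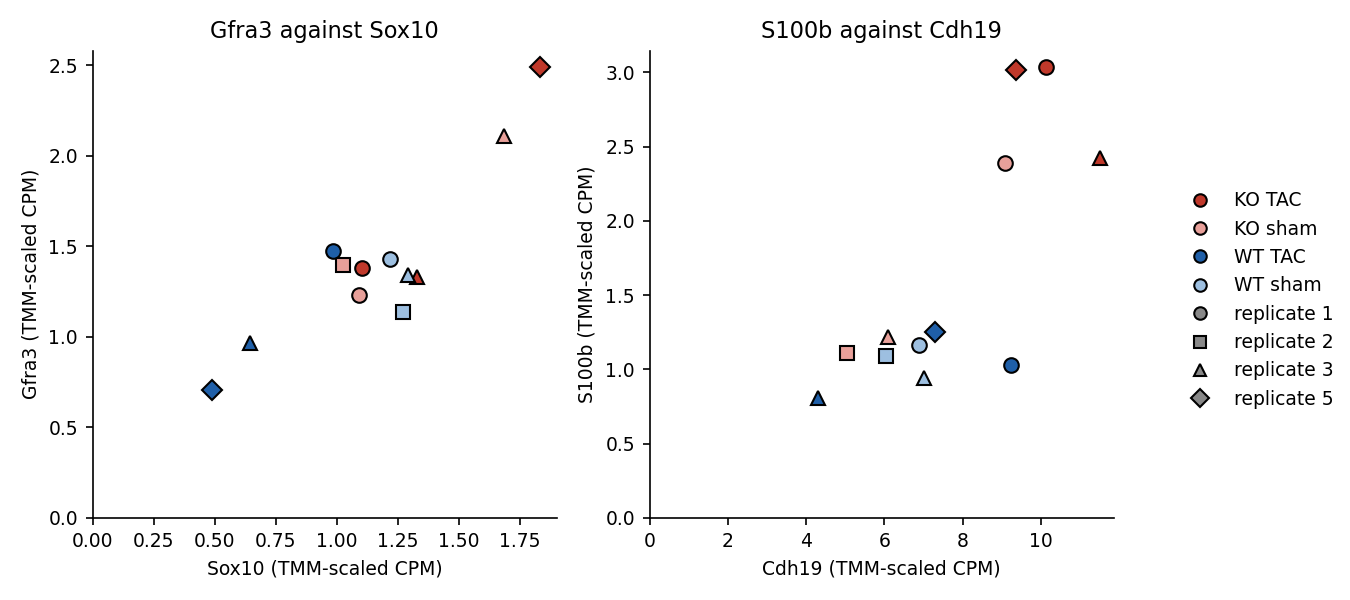
Gfra3 against Sox10 (left) and S100b against Cdh19 (right), 1 marker per library, both axes in TMM-scaled CPM from 0, with colour for the group and shape for the replicate number. Gfra3 follows Sox10 up to 1.84 and 2.49 CPM in KO TAC replicate 5, and on the right 4 libraries with S100b above 2 CPM stand apart from 8 below 1.3 CPM.

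The genes most alike in pattern were sought among 12371 named genes with a mean of at least 1 CPM. Over the 12 libraries the mean z-score of the 5 members was closest to Map3k2 (r = 0.921), Kcna6 (0.915), Zfp638 (0.891), Rasgrp3 (0.888), Asxl3 (0.885) and Map4k5 (0.884). Kcna6, a voltage-gated potassium channel subunit, kept an r of 0.926 after the group means were removed. Sox10 was closest to Tspan2 (0.892), Gfra3 (0.890) and Lama4 (0.887), and Gfra3 was closest to Sox10 (0.890), Gucy1b1 (0.875) and Pik3c2a (0.874). Cdh19 was closest to Atxn7l2 (0.950), Pias3 (0.948) and Ccl21a (0.947), and S100b to Thbs3 (0.982), Ahctf1 (0.970) and Col22a1 (0.967). S100b was high only in KO TAC libraries and KO sham replicate 1, so its pooled r can reflect that split. Ngfr was closest to Zfp36l1 (0.880), Polr3e (0.876) and Tpst1 (0.874). Gfra3 was the only other member found among the 3 closest to a member, for Sox10, and the same held the other way round. With a mean of 0.593 CPM, Ngfr lay under the limit of 1 CPM and was never a candidate.

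Other genes of Schwann cells were read from lists chosen by function. Of 18 myelin genes, 9 passed the filter on low counts, and Gjb1, a gap junction gene of myelinating Schwann cells, was at 0 in every library. After TAC, 2 of the 9 were higher in KO than in WT hearts and 2 were lower, where 20.4% of all genes passed in either direction, with a median log2 fold change of 0.45. The higher ones were Mbp, which encodes a compact-myelin protein (1.25 ± 0.30, adjusted p = 0.0239), and Drp2, which encodes a partner of periaxin (1.88 ± 0.49, adjusted p = 0.0286). The lower ones were Mal (-1.58 ± 0.30, adjusted p = 0.0165), a raft protein that epithelia also make, and the adhesion gene Cadm4 (-1.68 ± 0.39, adjusted p = 0.0231).

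Mbp measured 4.48, 3.29 and 4.72 CPM in KO TAC, 4.57, 2.96 and 2.44 CPM in KO sham, 2.06, 1.40 and 1.80 CPM in WT TAC and 3.28, 4.77 and 2.93 CPM in WT sham libraries. Its WT TAC libraries were thus the lowest, as those of Sox10 were, with a log2 fold change of -1.06 ± 0.30 between WT TAC and WT sham that did not pass (adjusted p = 0.174).

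Of 24 genes of non-myelinating and repair Schwann cells, 16 passed the filter. After TAC, 3 of the 16 were higher in KO than in WT hearts and 0 lower: Cadm2, an adhesion molecule of axons and glia (1.41 ± 0.39, adjusted p = 0.0320), Fabp7, a lipid-binding protein of immature glia (1.98 ± 0.55, adjusted p = 0.0321), and Csmd1, a large transmembrane protein (1.66 ± 0.52, adjusted p = 0.0455). That count is near the 20.4% of all genes that passed in this comparison. The log2 fold change was above 0 for 14 of the 16, with a median of 0.62. Erbb3, the neuregulin receptor of Schwann cells, was on the other side at -0.67 ± 0.25 (adjusted p = 0.0723). Between WT TAC and WT sham hearts 15 of the 16 were below 0, with a median of -0.37 against 0.01 for all genes, and none passed. An unadjusted p under 0.05 was found for 3 of the 16 and for 16.2% of all genes. The 3 smallest p-values there belonged to Kcna1 (-1.31, adjusted p = 0.190), L1cam (-0.78, adjusted p = 0.221) and Gpr37l1 (-1.13, adjusted p = 0.224). The WT TAC libraries enter both of these contrasts.

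Of 25 ligands and receptors that act on Schwann cells, 20 passed the filter, and after TAC 1 was higher in KO hearts and 1 lower, a smaller share than the 20.4% of all genes, with a median log2 fold change of 0.29. Ntrk3, the receptor of neurotrophin-3, was at 1.74 ± 0.46 (adjusted p = 0.0292) and Bdnf, the brain-derived neurotrophic factor that binds p75 and Ntrk2, at -1.34 ± 0.39 (adjusted p = 0.0362). Bdnf measured 2.62, 2.74 and 2.62 CPM in KO TAC, 2.39, 6.37 and 7.87 CPM in KO sham, 4.33, 6.29 and 9.58 CPM in WT TAC and 8.79, 8.94 and 8.25 CPM in WT sham libraries. It was thus low in the same 4 libraries in which S100b was high. Artn, the ligand of Gfra3, did not pass the filter and had at most 0.295 CPM, and its signalling partner Ret was at 0.29 ± 0.28 (adjusted p = 0.451).

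**Figure D4:**
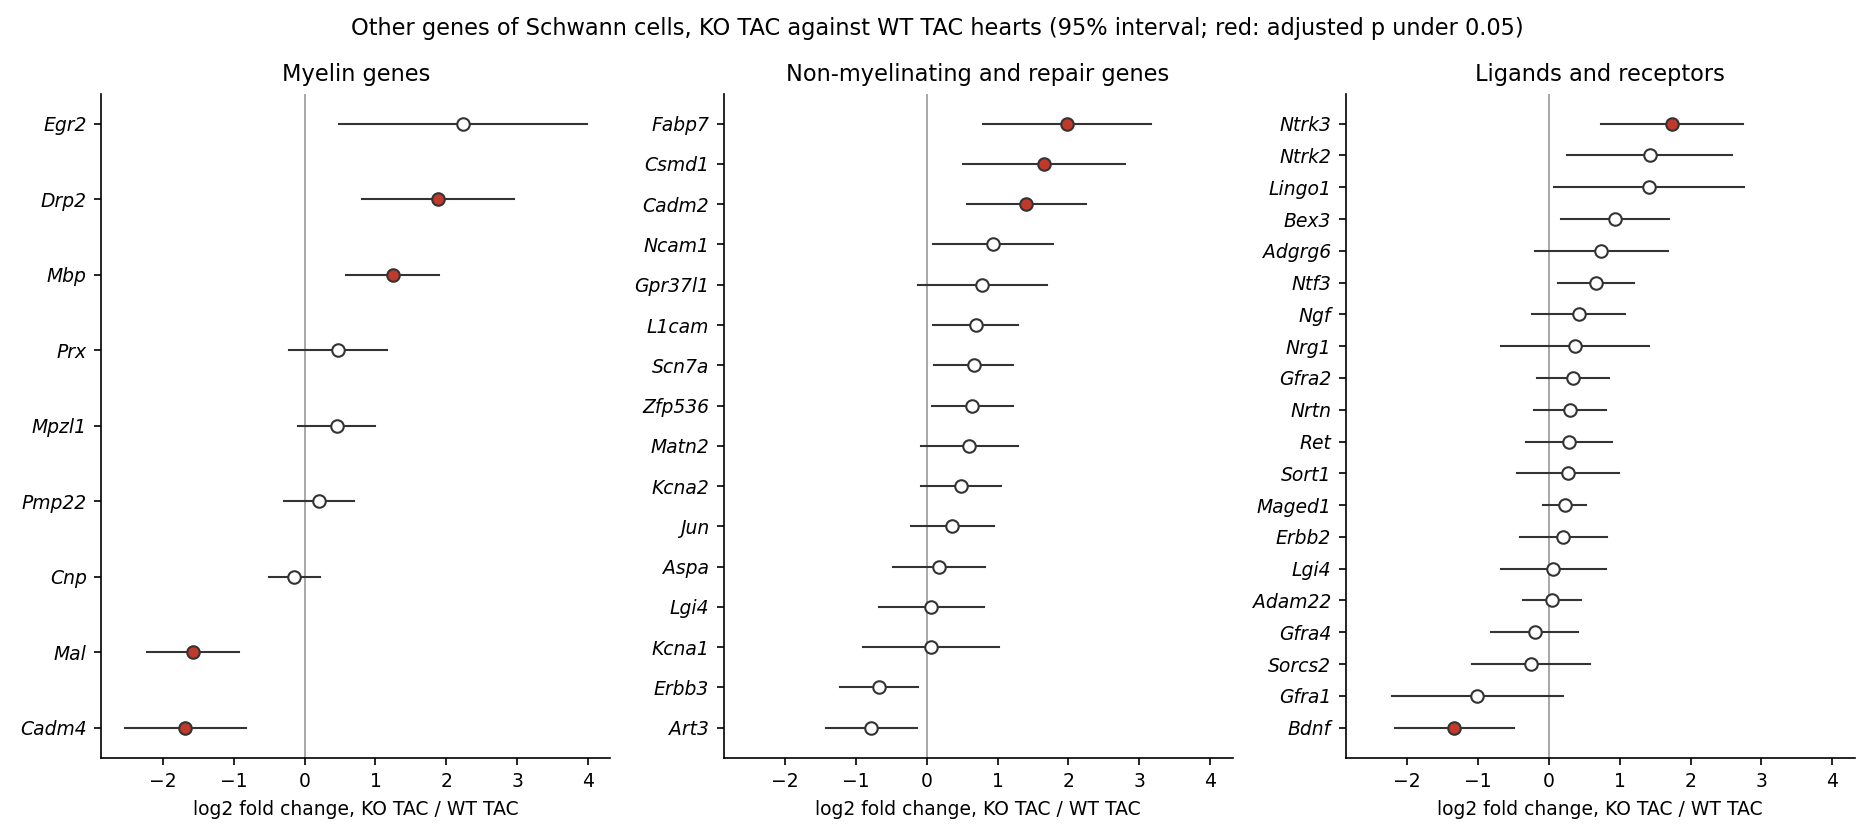
Log2 fold change of KO TAC over WT TAC hearts with its 95% interval for each listed gene that passed the filter on low counts: 9 myelin genes, 16 genes of non-myelinating and repair Schwann cells, and 20 ligands and receptors (Lgi4 stands in both of the last lists). Red marks an adjusted p under 0.05, which 2 higher and 2 lower myelin genes, 3 higher non-myelinating genes, and Ntrk3 and Bdnf have.

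In the other 4 comparisons edgeR called none of these genes with 12 libraries. At an unadjusted p under 0.05 stood 1, 3 and 6 of the myelin, non-myelinating and ligand or receptor genes in WT TAC against WT sham, 2, 2 and 7 in KO TAC against KO sham, 5, 1 and 1 in KO sham against WT sham, and 2, 2 and 1 for the interaction. Of all genes, 16.2%, 30.9%, 13.5% and 9.19% stood there in these comparisons. In the same orders DESeq2 called 1, 0 and 1, then 0, 0 and 3, then 1, 0 and 0, then none, and limma-voom called 1, 1 and 2, then 5, 9 and 11, then 5, 1 and 2, then 4, 6 and 4. The shares of all genes called in those orders were 3.33%, 13.7%, 1.39% and 0.595% with DESeq2 and 6.52%, 63.2%, 14.9% and 32% with limma-voom. With both of the libraries that stood apart left out, the comparison of KO TAC with WT TAC gave 4 higher and 2 lower of 9 myelin genes, 9 higher and 2 lower of 16 non-myelinating genes, and 5 higher and 2 lower of the 23 ligands and receptors then tested, where 53.8% of all genes were called. Among them Mbp had a log2 fold change of 1.39 (adjusted p = 0.000980) and Erbb3 one of -0.67 (adjusted p = 0.00271). With all 12 libraries DESeq2 called 5 of the myelin, 4 of the non-myelinating and 5 of the ligand or receptor genes in this comparison and 30.2% of all genes, and limma-voom called 6, 10 and 5 and 48.4% of all genes.

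Markers of the nerve cells that cardiac Schwann cells accompany were sparse. Of 22 autonomic neuron genes 7 passed the filter, Chat and Slc18a3 were at 0 in every library, and Th, the first enzyme of noradrenaline synthesis, was at 0 in all but 2, KO sham replicates 1 and 2. After TAC 0 of the 7 passed, with 2 at an unadjusted p under 0.05, and DESeq2 and limma-voom each called 1 higher. Of all genes 20.4% passed, 40.8% had an unadjusted p under 0.05, and DESeq2 and limma-voom called 30.2% and 48.4%. Dbh, which makes noradrenaline from dopamine, had a log2 fold change of 1.25 ± 0.44 (adjusted p = 0.0601). It measured 5.10, 2.11 and 3.61 CPM in KO TAC, 1.36, 5.38 and 3.75 CPM in KO sham, 1.72, 1.61 and 1.20 CPM in WT TAC and 4.29, 3.49 and 3.78 CPM in WT sham libraries. The WT TAC libraries were all below the WT sham ones, as for Sox10, Ngfr and Mbp, and this did not pass either (-1.34 ± 0.43, adjusted p = 0.206). The 7 neuronal genes went both ways: in WT TAC against WT sham 4 of the 7 had a log2 fold change above 0, the median was 0.38, and 3 genes lay wholly above sham and 2 wholly below. Over all genes, 13.4% lay wholly above and 13.7% wholly below. The neuronal genes above were Tubb3, a neuronal tubulin (1.37, adjusted p = 0.186), Uchl1, a ubiquitin hydrolase of neurons (0.87, adjusted p = 0.272), and Stmn2, a stathmin of growing axons (0.63, adjusted p = 0.288). Tubb3, for one, averaged 2.17 ± 0.839 CPM in WT TAC and 0.831 ± 0.0842 CPM in WT sham libraries.

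Marker sums also set the KO TAC libraries and KO sham replicate 1 apart, with fibroblast sums higher and cardiomyocyte sums lower there. The summed level of 8 fibroblast genes was 2481 to 3015 CPM in KO TAC libraries and 2655 CPM in the one labelled KO sham replicate 1, against 1411 to 1889 CPM in WT TAC, 1727 to 2022 CPM in WT sham and 1953 and 2081 CPM in the other KO sham libraries. After TAC 3 of the 8 were higher in KO hearts, Dpt (1.09), Gsn (0.89) and Dcn (0.90 on the log2 scale), while the other 5 did not pass. Of all genes, 20.4% passed in either direction. The log2 fold change was above 0 for 6 of the 8, and below 0 for the collagen genes Col1a1 (79.8 ± 8.36 CPM in KO TAC, 92.5 ± 41.0 CPM in WT TAC libraries) and Col1a2 (129.8 ± 5.77 CPM in KO TAC, 134.0 ± 70.2 CPM in WT TAC libraries). Most of the fibroblast sum was Gsn, with a mean of 1280 CPM in KO TAC and 689 CPM in WT TAC libraries, and Dcn, with 843 CPM in KO TAC and 452 CPM in WT TAC libraries. Cardiomyocyte genes were abundant in every library of this labelled heart tissue, and the sum of 8 of them was 35134 to 38353 CPM in KO TAC libraries and 27500 CPM in the one labelled KO sham replicate 1, against 50644 to 52326 CPM in WT TAC, 55126 to 56017 CPM in WT sham and 45957 and 49189 CPM in the other KO sham libraries. Actc1, Ryr2 and Pln passed as lower in KO TAC than in WT TAC hearts, beside the 20.4% of all genes. All 8 had a log2 fold change below 0, with a median of -0.53. The part of these shifts, and of the mitochondrial share, in the S100b result was not tested.

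Adipocyte and atrial genes were also higher in KO than in WT hearts after TAC, with 6 of 7 and 6 of 7 tested genes passing, beside 20.4% of all genes. Of 7 mesothelial genes 1 passed, Wt1, a transcription factor of the epicardium. All 7 had a log2 fold change above 0, with a median of 3.26. For 6 of them KO TAC libraries lay wholly above WT TAC libraries, against 22.7% of all genes. Without KO sham replicate 1, 6 passed, as did 40.7% of all genes. Without both that library and WT TAC replicate 1, 1 passed, as did 53.8% of all genes. Since adipocytes make S100b, Adipoq and other adipocyte genes were set beside it. Adipoq, which encodes the hormone adiponectin, measured 2.97, 2.97 and 3.28 CPM in KO TAC, 2.59, 0.986 and 0.843 CPM in KO sham, 0, 0.269 and 0.0544 CPM in WT TAC and 0.318, 1.72 and 0.0994 CPM in WT sham libraries. The highest 4 libraries were the same as for S100b. Other adipocyte genes varied in this. For Plin1 and Cidec the highest WT sham library (1.23 and 1.54 CPM) exceeded the highest KO sham library (1.16 and 1.50 CPM). For Retn, Cfd and Pck1 the highest KO sham library (1.30, 17.7 and 1.64 CPM) exceeded the highest WT sham library (0.272, 3.95 and 1.18 CPM). In WT sham replicate 2, Adipoq was at 1.72 CPM and the sum of 7 atrial genes at 1860 CPM, within the 705 to 2522 CPM of KO TAC libraries, and S100b was 1.09 CPM there, as in the other WT sham libraries. The sum of 9 adipocyte genes, most of it Fabp4, was 1026 to 1168 CPM in KO TAC and 779 to 1532 CPM in WT TAC libraries. The sum of 7 mesothelial genes was 27.6 to 41.1 CPM in KO TAC and 4.95 to 7.67 CPM in WT TAC libraries, with KO sham replicate 1 at 75.8 CPM. The part of these cell types in the differences of S100b and Cdh19 was not tested.

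**Figure D5:**
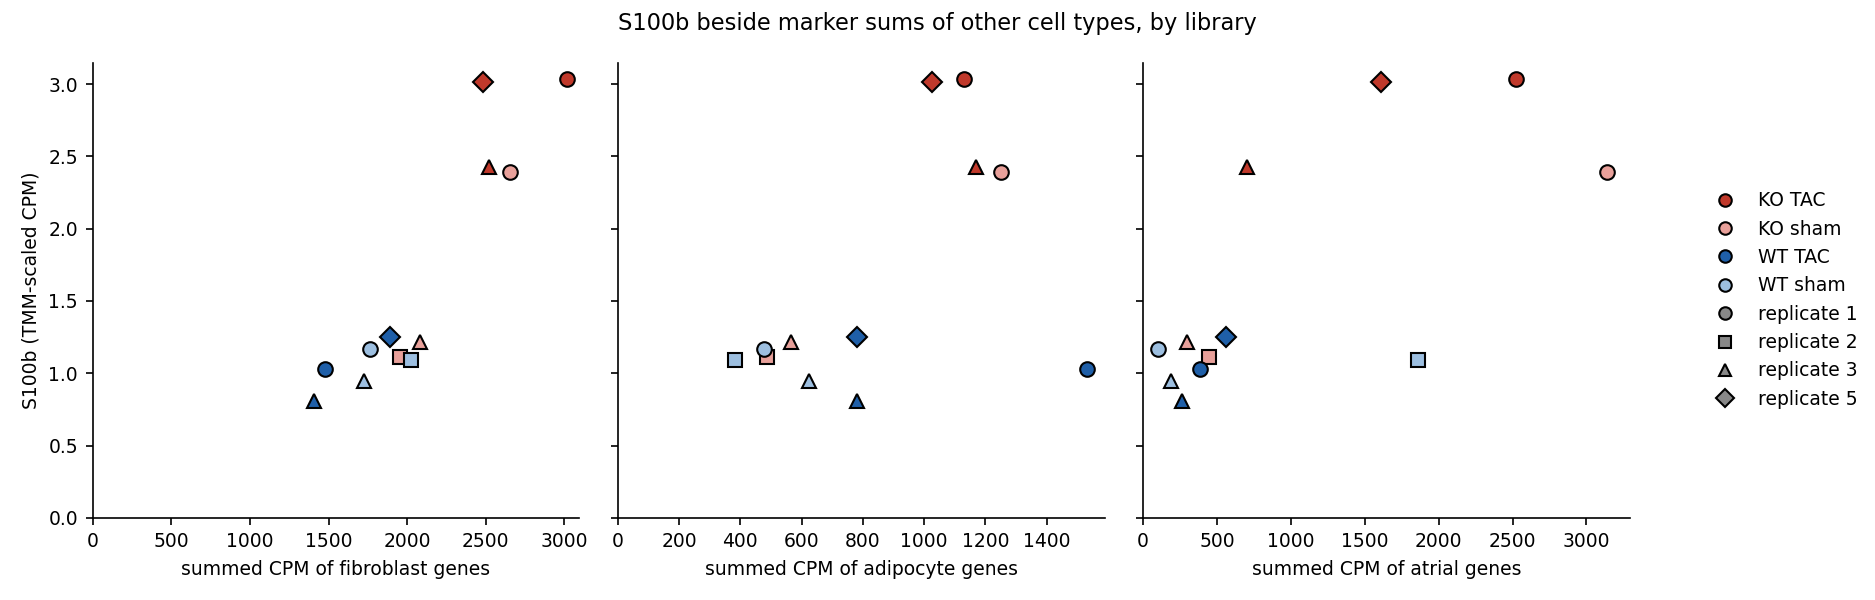
S100b in TMM-scaled CPM against the summed CPM of 8 fibroblast, 9 adipocyte and 7 atrial genes, 1 marker per library, all axes linear from 0. The adipocyte axis is mostly Fabp4, with means of 1084 CPM in KO TAC and 1030 CPM in WT TAC libraries. It hardly shows Adipoq, with means of 3.07 CPM in KO TAC and 0.108 CPM in WT TAC libraries. The 3 KO TAC libraries and KO sham replicate 1 have the highest S100b and the highest fibroblast sums, from 2481 CPM upward, and WT sham replicate 2 has a high atrial sum (1860 CPM) with S100b at 1.09 CPM.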

How the data were processed

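Polyadenylated RNA of 12 mouse hearts was sequenced in pairs, per the labels' protocols. The authors deposited raw counts per Ensembl gene; HISAT2 is named in the submitters' processing notes, while the sources used here name no counter, build, annotation or strand setting. Symbols came from GENCODE M21 and matched 52081 of 55357 identifiers. Of these identifiers, 23267 were at 0 in every library. The 5 genes and all lists were chosen with earlier results of these data known, and the lists name called members or else up to 3 with the smallest p; Gjb1, Erbb3, Artn, Ret, Th, Chat, Slc18a3, Fabp4, Col1a1, Col1a2, Tubb3, Uchl1, Stmn2, Mlana, Tyr and Tyrp1 were named after their values were seen. Some myelin genes are not reported here. Genes were filtered by group with edgeR 4.0.16 (filterByExpr), scaled by TMM and tested by robust quasi-likelihood fits over the 4 groups, with Benjamini-Hochberg adjustment over 15804 genes and a threshold of 0.05. Log2 CPM used a prior count of 2. Alternatives were DESeq2 1.42.0, limma 3.58.1 (voom with sample weights), library-total scaling, no filter, a replicate block and leaving out each library; for the lists these were added after the data were seen. The labels do not name animals, so p-values cover only how these libraries vary, which may be technical.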

Additional observations from a re-analysis of the deposited data

How the results depend on the processing

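Of the 5 genes, the number called in KO TAC against WT TAC was 1 with 12 libraries, 2 with DESeq2, 3 with limma-voom, 4 with both KO sham replicate 1 and WT TAC replicate 1 left out, and 0 to 3 when each library was left out in turn (0 without KO TAC replicates 1, 3 or 5 or WT TAC replicates 3 or 5, and 3 without WT TAC replicate 1). In KO TAC against KO sham it was 0, against 3 with limma-voom, 2 without both libraries and 0 to 2 when each was left out. For the interaction it was 0, against 2 with limma-voom, 2 without both libraries and 0 to 1 when each was left out. In the other comparisons it was 0 under every alternative run. Same-numbered libraries deviated with correlations from -0.194 to 0.618, and differently numbered ones from -0.572 to 0.449. The labels do not say whether the numbers pair the samples, and so few libraries per group cannot decide it. With the replicate block the counts were 1 for KO TAC against WT TAC and 0 for the other 4, as without it. Signs turned only for genes that did not pass. With limma-voom the log2 fold change was -0.20 for Cdh19 in KO sham against WT sham, -0.14 for Cdh19 in WT TAC against WT sham, -0.19 for Gfra3 and -0.080 for Sox10 in KO TAC against KO sham, -0.27 for Ngfr in KO TAC against WT TAC and -0.90 for its interaction. With library totals it was -0.039 for Gfra3 and -0.011 for Sox10 in KO TAC against KO sham, -0.0031 for the Ngfr interaction and 0.10 for S100b in WT TAC against WT sham. With the block it was -0.024 for Cdh19 and -0.0020 for Sox10 in KO sham against WT sham, -0.088 for Cdh19 in WT TAC against WT sham and -0.024 for Gfra3 in KO TAC against KO sham. Without both libraries it was -0.24 for Cdh19 in KO sham against WT sham, -0.18 for Cdh19 in WT TAC against WT sham and -0.038 for the Ngfr interaction. When each library was left out in turn, the log2 fold change ran from -0.25 to 0.17 for Cdh19, from -0.065 to 0.48 for Ngfr and from -0.26 to 0.14 for Sox10 in KO sham against WT sham. In WT TAC against WT sham it ran from -0.19 to 0.31 for Cdh19 and from -0.21 to 0.093 for S100b. In KO TAC against KO sham it ran from -0.20 to 0.41 for Gfra3 and from -0.044 to 0.44 for Sox10. For Ngfr it ran from -0.48 to 0.99 in KO TAC against WT TAC and from -0.64 to 0.81 in the interaction. The causes were not tested. With 9 to 36 counts of Sox10 and 1 to 27 of Ngfr per library, counting limits these 2 genes most.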

Other observations

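Melanocyte genes, whose cells share the neural crest origin of Schwann cells, were measured alongside. Dct, the melanin enzyme dopachrome tautomerase, measured 9.24, 9.47 and 6.82 CPM in KO TAC, 6.55, 3.04 and 5.62 CPM in KO sham, 7.08, 12.3 and 9.09 CPM in WT TAC and 2.81, 3.18 and 2.24 CPM in WT sham libraries. Every TAC library was above every sham library of its genotype, which held for 13.4% of all genes in WT hearts and 11.6% in KO hearts. The log2 fold change in WT hearts was 1.79 ± 0.30 (SE), which did not pass edgeR's quasi-likelihood test with all 12 libraries (adjusted p = 0.0585) or with a replicate block (adjusted p = 0.431). Dct did pass with DESeq2 (adjusted p = 2.68e-05) and limma-voom (adjusted p = 0.00334), where 3.33% and 6.52% of all genes were called. It also passed edgeR's test without KO sham replicate 1 (adjusted p = 0.00607), without WT TAC replicate 1 (adjusted p = 0.0439) and without both (adjusted p = 0.00109). Called there were, in that order, 6.53% of all genes, 22 of 16134 genes and 6.18% of all genes. Without both, 1 of the 5 melanocyte genes was called higher and 1 lower in WT hearts. Tyr and Tyrp1, the pigment enzymes, stayed at or under 0.621 CPM in every library. Kit, the stem cell factor receptor, was higher in KO than in WT hearts after TAC (1.36 ± 0.40, adjusted p = 0.0380). It was the 1 called of 5 melanocyte genes tested, where 20.4% of all genes were called. Mlana, a melanosome protein gene, measured 4.41, 0.704 and 3.54 CPM in KO TAC, 5.05 CPM in KO sham replicate 1 and 2.72 CPM in WT sham replicate 2. No other library exceeded 0.329 CPM.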
